A study of Homo sapiens with 6 samples.

Results

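The 9 genes described here act on vitamin A and its derivatives: the retinol dehydrogenases RDH5, RDH8, RDH10, RDH11 and RDH13, the retinal reductase DHRS3, the retinal dehydrogenases ALDH1A1 and ALDH1A3, and the retinoic acid-binding protein CRABP2. They are 9 of the 60675 genes counted in RNA-seq libraries of PLC/PRF5 (PLC/PRF/5), an established human hepatocellular carcinoma cell line. The list was picked because RDH8 was higher after knockdown of MTR4, so the values of RDH8 are given as a description, with no test. The rule named genes of the same pathway, and all 9 were found among the counted genes. Of these, 8 had enough reads to be tested, among 18075 tested genes in all, and ALDH1A3 did not.

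The experiment compared 3 control libraries with 3 libraries labelled MTR4 KD, all made from total RNA of the same cell line grown in DMEM with fetal bovine serum. MTR4, whose gene symbol is MTREX, is an RNA helicase that feeds nuclear transcripts to the RNA exosome for degradation. The knockdown was by short hairpin RNA. The methods of the study describe lentiviral vectors selected with puromycin and a doxycycline-inducible form, and the study describes its RNA-seq as made on the inducible cells before and after doxycycline. The series' description calls the controls wild, and the labels give only control and MTR4 KD, so doxycycline may differ between the groups together with the knockdown and cannot be told apart from it. The labels do not say whether replicates came from separate cultures. The p-values therefore measure the spread between these libraries, which may be technical. Libraries from cells with a scrambled hairpin were not analysed here.

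Reads assigned to genes numbered between 60686786 and 72708682 per library. MTREX itself measured between 72.2 and 87.4 CPM (reads on a gene per 1000000 reads on genes, after TMM scaling) in the controls and between 44.1 and 48.8 CPM in the MTR4 KD libraries. Its log2 fold change, MTR4 KD against control, was -0.77 with a standard error of 0.0897 (edgeR adjusted p = 0.00641). The libraries fell into 2 sets that crossed the conditions. Control replicates 1 and 3 and MTR4 KD replicate 3 had 34.7% to 37.5% of their entries set aside as aligning to more than 1 place, whereas control replicate 2 and MTR4 KD replicates 1 and 2 had 14.8% to 18.2%. These sets are called the first and the second library batch here, since the labels give them no name, and values within each are set beside the pooled ones.

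Retinol, the transport form of vitamin A, is oxidized reversibly to retinal, and retinal is oxidized irreversibly to retinoic acid, the ligand of nuclear receptors that switch genes on or off. Short-chain dehydrogenases, a family that includes the RDH enzymes and DHRS3, and medium-chain alcohol dehydrogenases of the ADH family carry out the reversible step, the ALDH1A enzymes the irreversible step, and CRABP2 brings retinoic acid to its nuclear receptor. Liver is the main store of vitamin A in the body. The hepatocyte takes up dietary retinoid and releases retinol into blood, while the stellate cell holds most of the stored esters.

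The retinol dehydrogenases RDH8 and RDH5 had the highest fold changes among the members. RDH8 was on average 2.32-fold higher and RDH5 1.76-fold higher in the MTR4 KD libraries, RDH13 was 1.20-fold higher, and the ratios of the group means of RDH10, RDH11, DHRS3, ALDH1A1 and CRABP2 lay between 0.933 and 1.10. Of the 7 tested members other than RDH8, 1 passed an adjusted p of 0.05 (RDH5, higher), against 3.60% of all tested genes called in either direction and 1.48% called higher. In 2 of the 7, RDH5 and RDH13, every MTR4 KD library lay above every control library, which was so for 12.1% of all tested genes. The median log2 fold change of the 7 was 0.13, beside 0.01 over all tested genes, and 6 of the 7 were positive (9234 of 18075 over all tested genes), among them DHRS3 at 0.03, whose sign turned with batch as a covariate. With library batch as a covariate, 2 of the 7 passed (RDH5 and RDH13), against 20.2% of all tested genes.

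**Figure D1:**
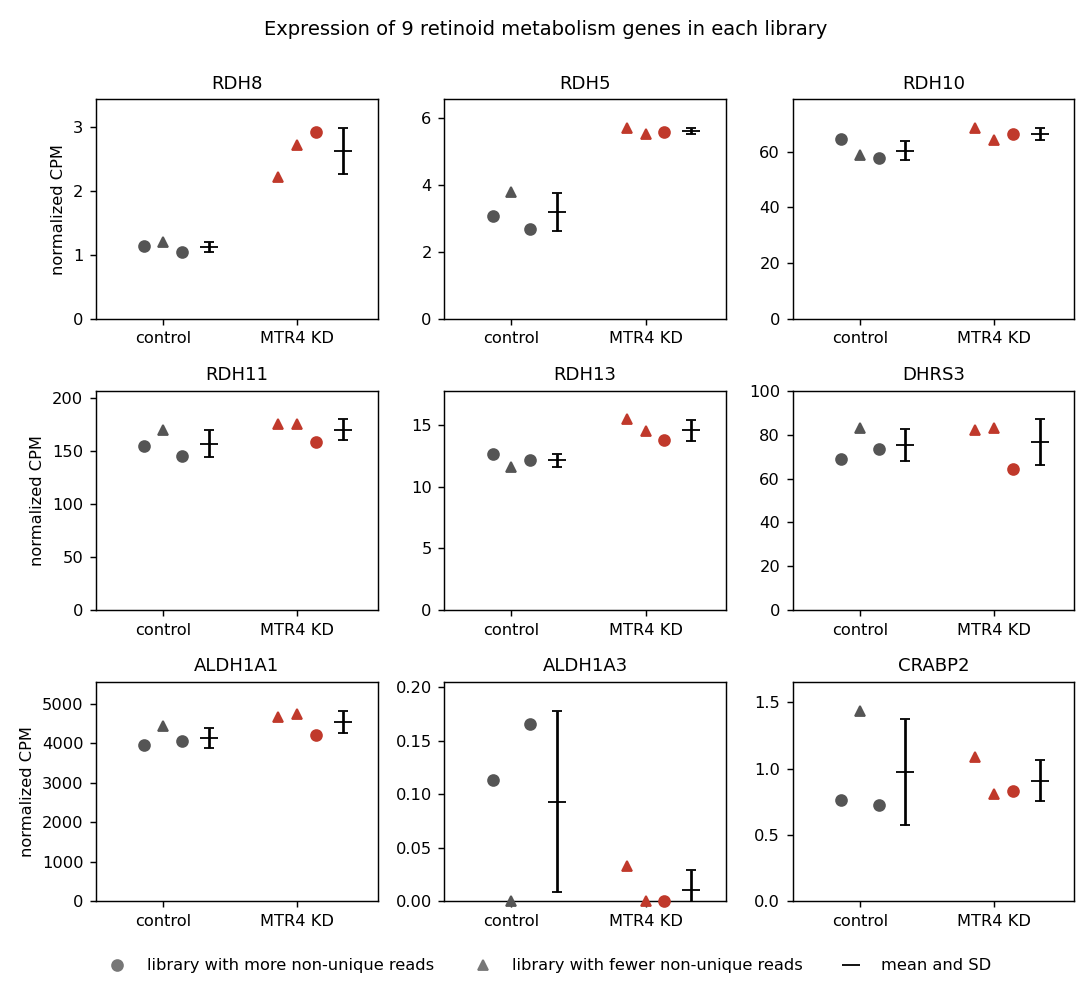
Normalized CPM (vertical axes, each starting at 0) of the 9 genes in the 3 control and 3 MTR4 KD libraries; circles are libraries with more and triangles libraries with fewer non-unique reads, and bars are the mean and SD of 3 libraries. RDH8, RDH5 and RDH13 have no overlap between the groups, and the other 6 genes overlap.

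RDH8, a photoreceptor-type retinol dehydrogenase that reduces all-trans-retinal in the eye, had few reads in this liver line. The controls held 70, 87 and 63 reads and the MTR4 KD libraries 136, 182 and 179 reads. On the CPM scale the controls measured 1.14, 1.20 and 1.04 and the MTR4 KD libraries 2.22, 2.72 and 2.92. The lowest MTR4 KD library, replicate 1, lay above the highest control, replicate 2. The mean was 1.13 ± 0.0788 CPM in controls and 2.62 ± 0.363 CPM in MTR4 KD (SD, n = 3 each), and the fitted log2 fold change was 1.21 with a standard error of 0.172. The log2 difference was 1.42 within the first batch and 1.04 within the second. Leaving out each library in turn gave fold changes between 1.13 and 1.33 on the log2 scale. RDH8 lies on chromosome 19 (GRCh38, RefSeq bases 10013483 to 10022279), with no other gene overlapping it and no exon base shared with another annotated gene.

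RDH5, the 11-cis-retinol dehydrogenase of the retinal pigment epithelium, measured 3.08, 3.80 and 2.69 CPM in the controls and 5.70, 5.54 and 5.59 CPM in the MTR4 KD libraries. The MTR4 KD libraries sat within a narrow band above all controls, and control replicate 2 was the highest control. RDH5 rose by 0.81 on the log2 scale (standard error 0.144, edgeR adjusted p = 0.0296). The log2 difference was 0.96 within the first batch and 0.57 within the second, and with batch as a covariate the fold change was 0.76 on the log2 scale (edgeR adjusted p = 0.000921). The call without that covariate was lost when any 1 library other than control replicate 2 was left out. The edgeR adjusted p was 0.142 without control replicate 1, 0.106 without control replicate 3, and 0.139, 0.132 and 0.0523 without MTR4 KD replicates 1, 2 and 3, with log2 fold changes between 0.70 and 0.95. Without control replicate 2 it was 0.0119. Control replicate 2 was the only control of the second batch, so that fit set controls of the first batch against MTR4 KD libraries of both batches.

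RDH5 lies on chromosome 12 (GRCh38, bases 55720393 to 55724705) and is overlapped by CD63 and by the read-through gene BLOC1S1-RDH5. Of its exon bases, 68.2% are also exon of the read-through gene in the annotation used here, so reads there can count as ambiguous and not be assigned to RDH5. The read-through gene itself held 27 to 53 reads per library, against 162 to 370 for RDH5. No fold change of the read-through gene is given here. The neighbours CD63 and BLOC1S1 did not pass the test: CD63, a tetraspanin of lysosomes and exosomes, had a log2 fold change of -0.02 (edgeR adjusted p = 0.908), and BLOC1S1, the upstream partner of the read-through transcript, -0.04 (edgeR adjusted p = 0.921).

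The sequences before the transcription starts of the 3 members whose groups did not overlap are shown to set them side by side. They come from RefSeq on GRCh38.p14, and the letters searched on both strands were AGGTCA and AGTTCA, the hexamers bound by retinoid and related nuclear receptors, over the 250 bases before the start. The capitals mark AGGTCA or its reverse complement TGACCT. The RDH8 stretch is bases -30 to -1 (chr19:10013453-10013482, plus strand) and falls inside longer annotated RDH8 transcripts. The RDH13 stretch is bases -149 to -120 (chr19:55069640-55069669, minus strand), and the RDH5 stretch is the 220 bases from -250 to -31 (chr12:55720143-55720362, plus strand), printed at length since it held no match.
RDH8: caggtgctgcccggcggAGGTCAcgagtcc
RDH13: gcatctgagcttTGACCTcaatttcgagaa
RDH5: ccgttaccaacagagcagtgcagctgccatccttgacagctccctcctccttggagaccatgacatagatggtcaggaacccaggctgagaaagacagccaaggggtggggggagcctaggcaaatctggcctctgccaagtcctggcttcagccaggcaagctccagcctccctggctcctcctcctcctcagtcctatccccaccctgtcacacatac

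Of the 8 members matched in the promoter table, 2 held AGGTCA (RDH8 and RDH13, 1 match each) and 0 held AGTTCA. Over all 34943 promoter windows of that length, 12.1% held AGGTCA and 8.81% held AGTTCA. A direct repeat of these hexamers (AGGTCA or AGTTCA in either place) spaced by 1, 2 or 5 bases was in 0 of the 8. Of all windows, 0.0401%, 0.00572% and 0.0143% held such a repeat at these spacings. RDH10 was not matched. A match of letters is a description of the sequence and says nothing of a factor bound there.

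RDH13, a retinol dehydrogenase of mitochondria, measured 12.7, 11.6 and 12.2 CPM in the controls and 15.5, 14.5 and 13.8 CPM in the MTR4 KD libraries. The groups did not overlap, and the gap between them was small: the highest control was control replicate 1 and the lowest MTR4 KD library was replicate 3, both of the first batch. The log2 fold change was 0.26 (standard error 0.0825, edgeR adjusted p = 0.147), which missed the threshold. Within the first batch the difference was 0.15, and within the second 0.37. With batch as a covariate the fold change was again 0.26 on the log2 scale, now with an edgeR adjusted p of 0.0303. Of the RDH13 exon bases 13.7% are shared with 2 other annotated genes. GP6-AS1, which is among them, had a log2 fold change of 0.10 (edgeR adjusted p = 0.896).

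RDH10 carries out the oxidation of retinol to retinal that limits retinoic acid synthesis in the embryo. It measured 64.4, 58.8 and 57.9 CPM in the controls and 68.4, 64.3 and 66.4 CPM in the MTR4 KD libraries. The groups overlapped, since control replicate 1 lay just above MTR4 KD replicate 2. The log2 fold change was 0.14 (standard error 0.0653, edgeR adjusted p = 0.316, and 0.0696 with batch as a covariate). Of the RDH10 exon bases 5.21% are shared with its antisense gene RDH10-AS1, which held 5 to 15 reads per library and was not tested.

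RDH11, a retinal reductase of broad expression, measured 155, 170 and 145 CPM in the controls and 175, 176 and 158 CPM in the MTR4 KD libraries. In both groups the libraries of the second batch were the higher ones, and the groups overlapped. It had a log2 fold change of 0.12 (standard error 0.0801, edgeR adjusted p = 0.492), and within batches it was 0.08 and 0.05. Of the RDH11 exon bases 6.29% are shared with another annotated gene. GPHN, whose position overlaps RDH11, had a log2 fold change of -0.02 (edgeR adjusted p = 0.929). RDH12, which lies 6121 bases from RDH11 on chromosome 14 and is not a member, is treated with the wider pathway.

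DHRS3 reduces retinal back to retinol and is itself a gene that retinoic acid induces in many cells. It measured 68.9, 83.1 and 73.5 CPM in the controls and 82.0, 83.1 and 64.4 CPM in the MTR4 KD libraries. The highest control was level with the highest MTR4 KD library, and the lowest value of all was MTR4 KD replicate 3. The log2 fold change was 0.03 (standard error 0.117, edgeR adjusted p = 0.929). Its sign turned with batch as a covariate (-0.08, standard error 0.0478, edgeR adjusted p = 0.304), and within batches the differences were -0.14 and -0.01. No direction is given for DHRS3.

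**Figure D2:**
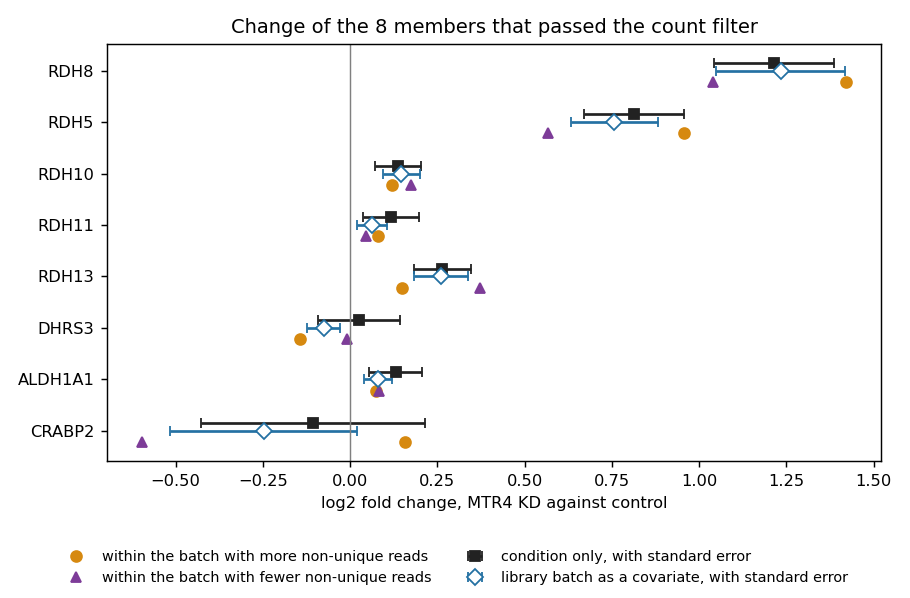
Log2 fold change, MTR4 KD against control, of the 8 tested members; squares and diamonds are the fits with condition only and with library batch as a covariate, bars are standard errors, and the circle and triangle are the differences within each batch. RDH8 and RDH5 lie to the right of the other 6 members in both fits, and DHRS3 and CRABP2 have points on both sides of 0.

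ALDH1A1, the retinal dehydrogenase of adult liver, was by far the most abundant member. It measured 3956, 4434 and 4046 CPM in the controls and 4658, 4741 and 4212 CPM in the MTR4 KD libraries. MTR4 KD replicate 3 lay below control replicate 2, so the groups overlapped. Its log2 fold change was 0.13 (standard error 0.0754, edgeR adjusted p = 0.409), and the 2 batches gave 0.07 and 0.08.

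ALDH1A3, a retinal dehydrogenase of the eye and nasal region in development, was almost without reads. The controls held 7, 0 and 10 reads and the MTR4 KD libraries 2, 0 and 0. Reads were present in both controls of the first batch and absent from the other control. The libraries at 0 reads allow levels of up to 0.0414 CPM in control replicate 2, 0.0449 CPM in MTR4 KD replicate 2 and 0.0489 CPM in MTR4 KD replicate 3 (3 counts per library). Of its exon bases 33.3% are shared with other annotated genes, mainly its antisense gene ALDH1A3-AS1, which had no counted reads. No difference between the groups was tested for ALDH1A3.

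CRABP2, which carries retinoic acid to the nucleus, measured 0.762, 1.44 and 0.730 CPM in the controls and 1.09, 0.809 and 0.832 CPM in the MTR4 KD libraries. Control replicate 2 was the highest library, with 104 reads against 44 to 67 in the others, and the remaining controls were the lowest. The log2 fold change was -0.11 (standard error 0.321, edgeR adjusted p = 0.896). Without control replicate 2 it turned to 0.28 (edgeR adjusted p = 0.554), and within batches it was 0.16 and -0.60. In control replicate 2 the summed level of 8 stellate cell and fibroblast markers was also the highest of the controls, at 15.5 CPM against 8.43 and 8.97 CPM. Among the MTR4 KD libraries that sum was 7.25, 7.49 and 12.9 CPM, and replicate 3, with the highest sum, had 0.832 CPM of CRABP2. Its part in the CRABP2 value was not tested.

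Compared per length, as CPM per kb of exon, the levels of the members spanned several orders of magnitude. In the controls ALDH1A1 stood first at 1460 ± 89.5 CPM per kb (SD, n = 3), followed by RDH11 at 28.5 ± 2.30, DHRS3 at 21.4 ± 2.07, RDH10 at 11.3 ± 0.660, RDH13 at 1.41 ± 0.0637, RDH5 at 1.07 ± 0.189, CRABP2 at 0.902 ± 0.369, RDH8 at 0.563 ± 0.0394 and ALDH1A3 at 0.0175 ± 0.0159 CPM per kb. Of neighbours in that order, RDH5 and CRABP2 overlapped between libraries and the others did not. The order among the low members was different in the MTR4 KD libraries. There RDH5 measured 1.88 ± 0.0281, RDH13 1.70 ± 0.0982, RDH8 1.31 ± 0.181 and CRABP2 0.842 ± 0.145 CPM per kb, so that the lowest RDH5 library (1.86) lay above the highest RDH13 library (1.80) and the lowest RDH8 library (1.11) above the highest CRABP2 library (1.01). The RDH5 level per kb counts all of its exon bases, of which 68.2% are shared with the read-through gene. Reads on the shared bases may not be assigned to RDH5, so its place beside RDH13 and CRABP2 depends on the length used.

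RDH8 and RDH5 were a small part of the summed level of the 6 short-chain dehydrogenases among the members. RDH8 made up 0.877% ± 0.0227 of that sum in the controls and 1.89% ± 0.370 in MTR4 KD (SD, n = 3 each), and RDH5 1.66% ± 0.187 and 2.70% ± 0.184. RDH11, DHRS3 and RDH10 held most of the sum in both groups, with RDH11 at 44.3% ± 0.952 in the controls and 44.1% ± 0.470 in MTR4 KD. The sum itself was 64.2 ± 4.10 CPM per kb in the controls and 70.0 ± 4.70 CPM per kb in MTR4 KD, and the groups overlapped, with controls from 60.9 to 68.8 and MTR4 KD libraries from 64.6 to 72.8.

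The wider pathway list held 48 other genes, of which 38 were tested, 5 rose, 2 fell and 31 did not pass (edgeR, adjusted p under 0.05), against 3.60% of all tested genes called. The median log2 fold change of the 38 was 0.07. Without control replicate 1, control replicate 3 or MTR4 KD replicate 2 the calls numbered 3, 4 and 3. Over all genes the calls went from 650 to 164, 183 and 137 in the same fits. With batch as a covariate 11 of the wider pathway rose and 6 fell, against 20.2% of all tested genes called in that fit. Most calls were in the enzymes that interconvert retinol and retinal, where 4 of 12 tested genes rose and 1 fell. Among the 4 that rose were ADH1A, ADH1B and ADH1C, close copies of each other, so these are not fully separate calls. The carriers and uptake proteins had 1 of 10 rise and 1 fall. None passed among 5 tested genes of ester storage, 5 of acid synthesis and clearance, and 6 nuclear receptors. In these groups 1, 2 and 2 genes had an unadjusted p under 0.05 in edgeR, and 0, 0 and 0 passed by DESeq2. Of all 18075 tested genes, 3392 had such an unadjusted p and 1120 passed by DESeq2. With batch as a covariate 5 of the 12 retinol and retinal enzymes rose and 3 fell. Of the 10 carriers and uptake proteins 2 rose and 2 fell in that fit. There 1 of the storage genes, 1 of the acid genes and 3 of the receptors passed. The receptors were RARG at -0.39, RXRA at 0.32 and RXRB at 0.26 on the log2 scale (edgeR adjusted p of 0.00290, 0.00249 and 0.00266).

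The 3 class I alcohol dehydrogenases, liver enzymes that oxidize ethanol and retinol, rose together. ADH1A measured 31.2, 31.5 and 28.7 CPM in the controls and 78.5, 88.5 and 87.1 CPM in MTR4 KD, a log2 fold change of 1.47 (standard error 0.0738, edgeR adjusted p = 0.000505). ADH1B measured 1.46, 1.91 and 1.09 CPM against 5.93, 6.08 and 5.69 CPM, a log2 fold change of 1.98 (standard error 0.200, edgeR adjusted p = 0.00334). ADH1C measured 10.9, 11.1 and 9.75 CPM against 21.3, 23.7 and 24.5 CPM, a log2 fold change of 1.12 (standard error 0.0930, edgeR adjusted p = 0.00156). For all 3 the groups were far apart, and each call held when any 1 library was left out. These genes are close copies of each other, and reads that fit more than 1 copy can be lost or split in counting, so their separate values are less certain than their shared direction.

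HSD17B6, a short-chain dehydrogenase that acts on retinol and on steroids, was the remaining riser of that group and is named here after its values were seen. It measured 2.48, 3.33 and 2.87 CPM in the controls and 6.21, 5.46 and 5.01 CPM in MTR4 KD, a log2 fold change of 0.94 (standard error 0.149, edgeR adjusted p = 0.0189). The call was lost, with adjusted p of 0.0909 to 0.102 in edgeR, without control replicate 1, control replicate 3, MTR4 KD replicate 1 or MTR4 KD replicate 2. AKR1B1, an aldo-keto reductase that can reduce retinal, fell from a mean of 50.6 ± 1.89 to 40.6 ± 1.47 CPM (SD, n = 3 each). Its log2 fold change was -0.32 (edgeR adjusted p = 0.0396), and the call was lost when any 1 library was left out (edgeR adjusted p between 0.0581 and 0.172) and with total counts as the scale (edgeR adjusted p = 0.0501). RDH12, the neighbour of RDH11 and a retinal reductase of photoreceptors, lay just outside the threshold and is also named after its values were seen. It measured 3.66, 4.16 and 3.18 CPM in the controls and 6.42, 5.60 and 5.28 CPM in MTR4 KD, with no overlap, a log2 fold change of 0.65 and an edgeR adjusted p of 0.0531, which became 0.00365 with batch as a covariate. In the same group ADH4 and AKR1B10 went the other way, also with no overlap, at log2 fold changes of -0.67 and -0.62. They did not pass (edgeR adjusted p = 0.190 and 0.206), but did with batch as a covariate (edgeR adjusted p = 0.0129 and 0.0454).

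Among the carriers, TTR, which binds retinol-binding protein in plasma, measured 16.0, 16.1 and 14.7 CPM in the controls and 24.9, 29.2 and 31.8 CPM in MTR4 KD. Its log2 fold change was 0.88 (standard error 0.104, edgeR adjusted p = 0.00693), and the adjusted p moved to 0.0501, 0.0504 and 0.0543 without control replicate 1, control replicate 3 and MTR4 KD replicate 2. FABP5, a lipid-binding protein that can carry retinoic acid to PPARD, fell from 34.4, 37.1 and 32.2 CPM to 22.8, 21.6 and 19.3 CPM. Its log2 fold change was -0.70 (standard error 0.0915, edgeR adjusted p = 0.00960), with an adjusted p of 0.0545 without control replicate 1 and 0.0624 without MTR4 KD replicate 2. The plasma retinol carrier RBP4, an example chosen after its values were seen, averaged 49.1 CPM in the controls and 46.1 CPM in MTR4 KD, a log2 fold change of -0.09 that did not pass the test (edgeR adjusted p = 0.458). BCO1 had the largest log2 fold change of the tested carriers, 1.67, on 8, 23 and 6 reads in the controls and 42, 27 and 43 in MTR4 KD. It passed only with batch as a covariate (edgeR adjusted p = 0.126, and 0.0258 with batch). So did SCARB1, at -0.21 on the log2 scale with batch (edgeR adjusted p = 0.00736).

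**Figure D3:**
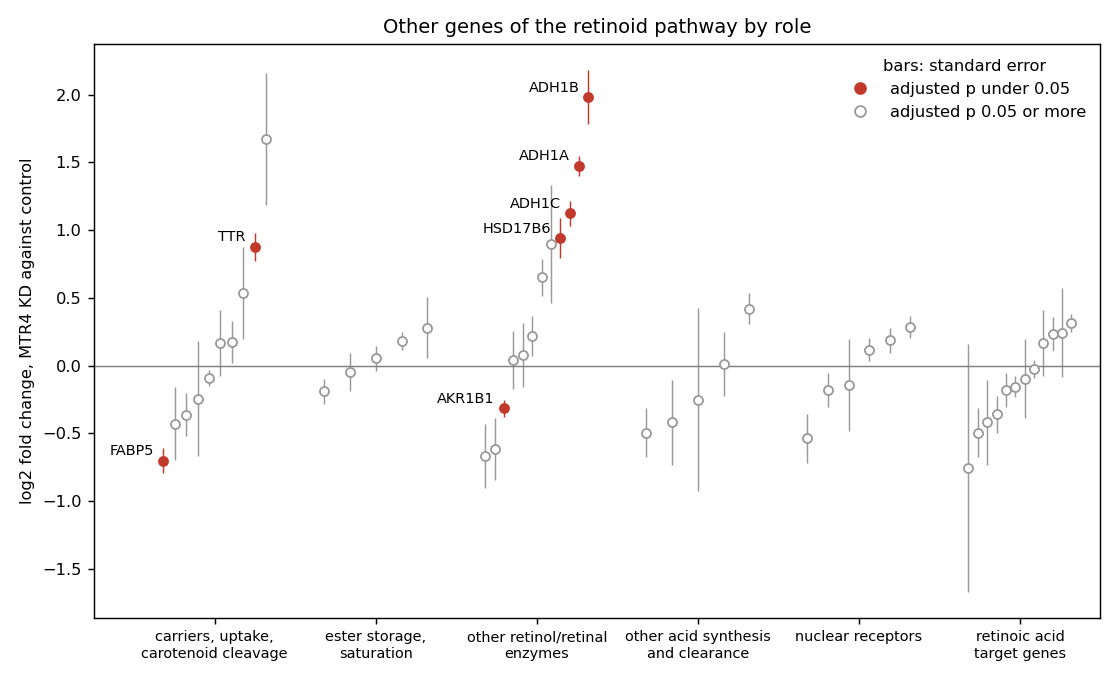
Log2 fold change, MTR4 KD against control, with standard error, of the tested genes of the wider retinoid pathway and of retinoic acid target genes, grouped by role; filled points passed an adjusted p of 0.05 in edgeR. The 7 filled points lie among the carriers and the retinol and retinal enzymes, and none among the storage, acid, receptor and target genes.

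Of 16 genes known as retinoic acid targets, 12 were tested and 0 passed in edgeR, against 3.60% of all tested genes. Of the 12, 3 had an unadjusted p under 0.05 in edgeR (1 higher and 2 lower), as had 3392 of all 18075 tested genes. By DESeq2 1 of the 12 passed (HOXA5), as did 1120 of all tested genes. With batch as a covariate 2 of the 12 passed, HOXA5 at 0.31 and MEIS2 at -0.40 on the log2 scale, against 20.2% of all tested genes. HOXA5 and MEIS2 are named because they passed there, and CYP26A1 and RARB, which did not pass, were chosen as examples after their values were seen. The median log2 fold change of the 12 was -0.13. CYP26A1, the retinoic acid-clearing enzyme that retinoic acid induces, measured 2.56 to 3.34 CPM in the controls and 1.73 to 2.44 CPM in MTR4 KD (log2 fold change -0.50, edgeR adjusted p = 0.202). The receptor gene RARB, also a target, averaged 9.58 and 8.46 CPM (log2 fold change -0.18, edgeR adjusted p = 0.492).

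The labelled cell type was checked by its markers. All 10 hepatocyte markers averaged at least 1 CPM, and their sum, most of it from SERPINA1 and APOB, was 16443 to 18519 CPM in the controls and 16105 to 17173 CPM in MTR4 KD. Single markers moved in both directions beside the rise of the ADH1 genes: the plasma protein genes ALB (log2 fold change 0.29, edgeR adjusted p = 0.0480), APOA1 (0.52, edgeR adjusted p = 0.00921) and TTR (above) rose, the keratin gene KRT18 fell (-0.26, edgeR adjusted p = 0.0435), and the other 6 did not pass. Their part in the changes of the retinoid genes was not tested. Of 8 stellate cell and fibroblast markers 3 reached that level, with sums of 8.43 to 15.5 and 7.25 to 12.9 CPM. Of 6 matched endothelial and immune markers 0 did over the 6 libraries, with sums of 1.26 to 3.83 and 0.733 to 1.86 CPM. The macrophage marker CD68 had no reads in the controls, but others of that list had some. CD14 averaged 1.19 CPM in the controls and 0.469 CPM in MTR4 KD, with no overlap (edgeR adjusted p = 0.0820, and 0.00821 with batch as a covariate). PTPRC held 109 reads in control replicate 3 and 0 in control replicate 2. In bulk RNA, more cells that express a gene and more of its RNA per cell cannot be told apart.

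Over the 6 libraries, the genes whose log2 CPM most resembled that of RDH8 were TTR (Pearson's r = 0.999), ADH1C (r = 0.996) and DGLUCY (r = 0.993), a mitochondrial enzyme of D-glutamate metabolism. They were sought among 11660 tested protein-coding genes with a mean of at least 100 reads, of which 166 reached r of 0.95. The 6 points share their libraries and fall into 2 conditions, so r includes the difference between conditions. DGLUCY measured 6.39, 6.59 and 6.05 CPM in the controls and 9.57, 10.0 and 10.1 CPM in MTR4 KD.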

How the data were processed

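The members and gene lists were chosen with earlier results of these data known. The authors aligned the reads with HISAT2 2.1.0 to GRCh38 and deposited a raw count of reads per gene for each of 6 libraries, with no normalization. HTSeq and DESeq2 are named in the submitters' processing notes, and the counting mode and strand setting are not given in the sources used here, so reads of a gene and its antisense partner cannot be told apart. Between 50.7% and 62.3% of the entries of each library were on genes, and the classes that name no gene stayed out of library sizes and tests.

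Gene symbols were given to 42395 of the 60675 counted genes from a GENCODE annotation and a gene name table, and positions came from RefSeq on GRCh38. Exon lengths and shared exon bases came from the GENCODE annotation lifted to GRCh37. Counts were tested with edgeR 4.0.16 in R 4.3.3 (filterByExpr with a minimum of 10 counts, TMM scaling, quasi-likelihood test, no term but condition), with p-values adjusted by Benjamini-Hochberg over the 18075 tested genes. The code was tested on simulated data. Alternatives were DESeq2 1.42.0 (its size factors and its Wald test), total counts, other count filters, a replicate block, library batch as a covariate (over or under 30% of entries aligning to more than 1 place), and leaving out each library. Replicates of a group differed beyond counting noise, so no library was counted as a repeat of another. Their chi-square per degree of freedom was 8.15 (control) and 4.68 (MTR4 KD) within the same batch. Between replicates of different batches it was 85.7 to 95.9. Differences within a batch are the log2 ratio of mean CPM, MTR4 KD against control, with no test.

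Named genes were MTREX, the 9 members, genes overlapping a member and the 3 genes most like RDH8. Of each other list at most 3 called genes per direction were named, by fold change. RNU6ATAC18P and MIR6730, which overlap DHRS3, are given no values. Other genes given with values were chosen after the values were seen. Likeness was computed on log2(CPM + 0.05).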

Additional observations from a re-analysis of the deposited data

How the results depend on the processing

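Over all genes, 650 passed the test, and 1136 passed by DESeq2's Wald test, 3649 with library batch as a covariate, and 137 to 803 when any 1 library was left out, lowest without MTR4 KD replicate 2. Of the members other than RDH8, 1 passed, 2 passed with batch as a covariate, and 0 to 1 when a library was left out. Of the wider pathway 7 passed, 17 with batch as a covariate and 3 to 8 when a library was left out. Of the retinoic acid targets 0 passed, 1 with a filter of at least 1 CPM in 3 libraries, 1 by DESeq2 and 2 with batch as a covariate, and 0 to 0 when a library was left out. The log2 fold change of DHRS3 turned to -0.076 with batch as a covariate and ranged from -0.042 to 0.14 when a library was left out, and that of CRABP2 ranged from -0.28 to 0.28. The causes were not tested, beyond the fewer libraries in the last kind of fit.

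Whether same-numbered replicates pair across groups could not be decided. Their deviations from the group means correlated at -0.24, 0.32 and 0.35, but numbers 2 and 3 shared a library batch across groups and number 1 did not. Over all pairs of a control and an MTR4 KD library, those of the same batch lay between 0.32 and 0.36. Pairs of different batches lay between -0.49 and -0.23. With the replicate block 857 genes passed, as did 1 member (RDH5, log2 fold change 0.83) and 9 genes of the wider pathway, RDH12 (adjusted p = 0.0399) and RARG (adjusted p = 0.0463, edgeR) beside the 7.

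Depth limits the low members: RDH8 rested on 63 to 182 reads per library and CRABP2 on 44 to 104.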
